A study of Capra hircus with 3 samples.

Results

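ATP-binding cassette (ABC) genes were read across the cells of goat liver in 3 single-cell RNA libraries. The members were all genes whose symbol is ABC followed by a letter from A to G and a digit, apart from ABCB11 and ABCB4. This gave 40 of the 27271 genes in the matrices, namely 11 ABCA, 6 ABCB, 10 ABCC, 4 ABCD, 1 ABCE, 3 ABCF and 5 ABCG genes. ABCB1 and ABCC4 were not among the symbols used here, and the ABC proteins TAP1, TAP2 and CFTR do not carry ABC symbols.

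ABC proteins bind and split ATP, and most use it to move a substrate across a membrane. In liver, members of the C and G subfamilies export conjugated bile pigments, drugs and plant sterols. ABCA1 and ABCG1 load cholesterol and phospholipid onto lipoproteins, most ABCD proteins bring fatty acids into peroxisomes, and several ABCB proteins work in mitochondria. ABCE1 and the ABCF proteins carry the ATP-binding cassettes but no membrane domain and act in translation, so the group name describes a fold rather than a single function.

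Con goats were healthy and ate the LRDS diet. Both other groups ate the HRDS diet, NASH goats having non-alcoholic steatohepatitis and NASH-T goats being the steatohepatitis tolerance group. The labels do not spell out the diet names, and all goats were female and 3 to 4 years old. Livers of 5 goats were mixed into 1 library per group, so diet, disease state, pool and library cannot be told apart and no test between groups was possible. Intervals below are 95% counting intervals only. Triplets run in the order Con, NASH, NASH-T.

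After filtering, the libraries held 7200, 8389 and 8914 cells with medians of 2392.5, 2472 and 2127.5 UMIs (unique molecular identifiers, that is, counted RNA molecules). Pairs of libraries shared 17 to 23 cell barcodes. Cells were grouped into classes named "-like" from marker genes, and the ABC genes took no part in the grouping. The 7 classes with at least 100 cells in every library were hepatocyte-like (2855, 4058 and 3114 cells), macrophage-like (1375, 1286 and 1484), T cell-like (1518, 1423 and 1974), endothelial-like (374, 551 and 1028), stellate or fibroblast-like (262, 417 and 369), NK cell-like (258, 162 and 341) and B cell-like cells (130, 100 and 196). The 15 measured hepatocyte markers summed to 20010, 21330 and 23730 CPM in hepatocyte-like cells. Levels are given as CPM, a gene's UMIs over all UMIs of the same class and library, and they compare the same gene between classes or libraries. They do not rank genes, because whether reads in introns were counted is not given in the sources used here.

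Each of the 7 classes except NK cell-like cells was the highest class of at least 2 ABC genes. Of the 37 members with at least 20 UMIs over the 7 classes, 12 were highest in hepatocyte-like, 8 in macrophage-like, 6 in B cell-like, 5 in T cell-like, 3 in stellate or fibroblast-like, 2 in endothelial-like and 1 in NK cell-like cells. Of all measured genes, 20.0%, 13.5%, 17.9%, 11.9%, 12.0%, 13.0% and 11.7% were highest in these classes, in the same order. A gap of at least 3 times to the next class was seen for 14 of the 37, against 19.5% of the 16038 genes measured the same way. None of the 14 lay in NK cell-like or B cell-like cells, which gave such a gap to 0.436% and 1.7% of all genes. ABCA2 had 7 UMIs, ABCC12 had 3 and ABCG4 had 0 in these classes, and none of these was ranked. In the map of levels by class, rows are ordered by highest class, so blocks of members by class follow from that order. ABCA1, ABCC5 and ABCG2 had hepatocyte-like and macrophage-like cells as their highest and next class, in either order. ABCD3, ABCE1 and ABCF1 were present throughout.

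**Figure D1:**
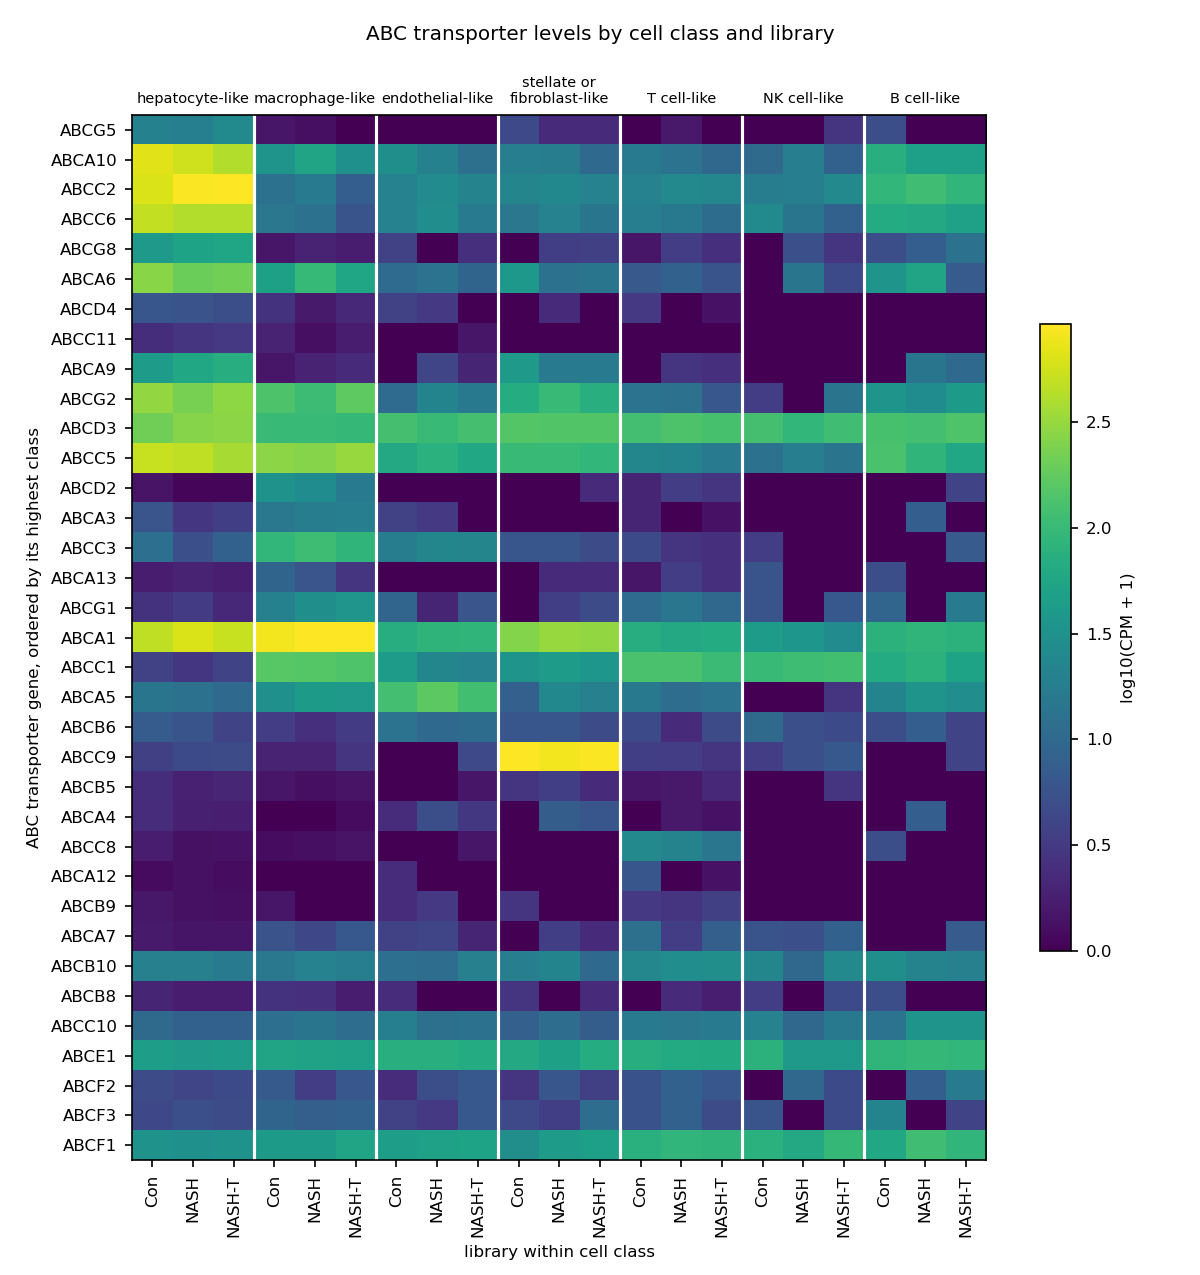
Levels of the ranked ABC genes reported here (rows, ordered by their highest class) in the 3 libraries of 7 cell classes (columns), coloured by log10(CPM + 1). ABCC9 stands out in stellate or fibroblast-like cells and ABCC2, ABCC6 and ABCA10 in hepatocyte-like cells, in all 3 libraries.

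Hepatocyte-like cells held 6 of the 14, ABCC2, ABCC6, ABCA6, ABCA10, ABCG5 and ABCG8, and 7.56% of all measured genes had such a gap in this class. Gaps were taken on the mean of the 3 libraries. By library, ABCA6 was at 5.77, 2.04 and 3.91 times its level in macrophage-like cells, its next class, so it fell short of 3 in NASH. Of the members highest in other classes, ABCA3 at 2.901 and ABCA13 at 1.645 in Con also fell short, as did ABCA5 at 2.994 in NASH-T. ABCC2, the canalicular pump for conjugated bilirubin and glutathione conjugates, was at 629, 889 and 908 CPM there, 8.30 times its mean level in B cell-like cells, the next class. A UMI of ABCC2 was found in 81.4%, 87.6% and 83.9% of hepatocyte-like cells, with median depths of 4200, 3863.5 and 4034 UMIs. In T cell-like cells, which should lack the gene, the shares were 2.17%, 2.39% and 2.79% at medians of 1173.5, 1019 and 1196.5 UMIs. Cells with at least 1000 UMIs were then thinned to 1000 and the others left out, as in every thinned value below. This kept 2681, 3853 and 2916 hepatocyte-like and 973, 737 and 1267 T cell-like cells. Among these the ABCC2 shares were 45.0%, 54.0% and 54.4% against 1.54%, 2.71% and 1.82%, so the gap between the classes was present at equal depth.

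ABCC6, the hepatocyte efflux protein whose loss causes ectopic calcification, was at 495, 420 and 414 CPM in hepatocyte-like cells and between 48.9 and 66.2 CPM in B cell-like cells, its next class. Hepatocyte markers summed to 5231, 5935 and 6080 CPM in B cell-like cells and to 3597, 4039 and 4392 CPM in T cell-like cells. The part of free hepatocyte RNA in the levels of ABCC2, ABCC6 and ABCA10 in B cell-like cells was not tested.

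ABCG5 and ABCG8 form the sterol exporter that passes plant sterols and cholesterol into bile. Their genes are neighbours in the RefSeq annotation of the assembly ARS1.2. ABCG5 was at 19.2, 18.0 and 25.5 CPM and ABCG8 at 38.1, 51.7 and 55.9 CPM in hepatocyte-like cells. In macrophage-like, endothelial-like and T cell-like cells both were below 3 CPM in every library, and ABCG5 had no UMI in endothelial-like cells. The next class was B cell-like for ABCG8, at a mean of 7.665 CPM, and stellate or fibroblast-like for ABCG5, at a mean of 2.041 CPM. The pair thus shared its highest class in all 3 libraries.

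Macrophage-like cells held 4 of the 14, ABCC3, ABCA3, ABCA13 and ABCD2, against 2.97% of all genes. ABCC3, an exporter of organic anion conjugates usually described on the basolateral side of hepatocytes and cholangiocytes, was at 90.5, 109.6 and 84.7 CPM in macrophage-like cells. In hepatocyte-like cells ABCC3 was at 11.1, 4.35 and 7.26 CPM. Thinned to 1000 UMIs, 7.56%, 11.2% and 7.87% of macrophage-like cells had an ABCC3 UMI, against 1.12%, 0.415% and 0.686% of hepatocyte-like cells. In every library the macrophage-like share lay well above the hepatocyte-like share, and T cell-like cells had 0.206%, 0.136% and 0.158%.

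ABCD2, a peroxisomal importer of very long chain fatty acids, was at 32.1, 26.4 and 15.2 CPM in macrophage-like cells and below 3.1 CPM in every other class of the 7. ABCA3, known for loading surfactant lipid into lamellar bodies of lung cells, was at 14.4, 17.1 and 17.7 CPM in macrophage-like cells and at 4.97, 1.92 and 2.57 CPM in hepatocyte-like cells. ABCA13 was found at 32, 16 and 8 UMIs in macrophage-like cells, which limits what its levels can show.

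ABCC9 encodes SUR2, the regulatory subunit of ATP-sensitive potassium channels in muscle and pericytes. Its levels in stellate or fibroblast-like cells were 906, 803 and 892 CPM, 212 times its mean in NK cell-like cells, the next class. This was the largest gap of the 37 ranked members. The count with such a gap in this class was 1, and 3.58% of all genes had a gap of at least 3 times in this class. Thinned to 1000 UMIs, 57.2%, 48.7% and 57.1% of stellate or fibroblast-like cells had an ABCC9 UMI, against 0.206%, 0.271% and 0 of T cell-like cells. For the 1267 NASH-T cells at 0, an exact interval reaches 0.291%. No library differed from Con by 1.5-fold in ABCC9, with ratios to Con of 0.886 (0.787 to 0.998) for NASH and 0.985 (0.877 to 1.107) for NASH-T.

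Of the pore subunits that pair with ABCC9, KCNJ8 was measured in stellate or fibroblast-like cells and KCNJ11 was not. KCNJ8 was at 98.5, 55.7 and 93.0 CPM, and lower in NASH than in Con with a ratio of 0.565 (0.371 to 0.856). Within the class, ABCC9 was at 994, 837 and 937 CPM in the cluster with RELN and HGF among its leading genes and at 624, 601 and 653 CPM in the cluster with C7 and LAMA2 among them, so the RELN cluster was higher in all 3 libraries.

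ABCC8, the SUR1 counterpart known from pancreatic beta cells, was highest in T cell-like cells at 23.7, 20.2 and 13.7 CPM, or 46, 33 and 36 UMIs. It had 0 UMIs in stellate or fibroblast-like cells of all 3 libraries, so the 2 regulatory subunits were found in different classes. NASH-T was lower than Con in ABCC8 with a ratio of 0.576 (0.362 to 0.911). ABCA12, a keratinocyte lipid transporter, also passed the 3-fold gap in T cell-like cells, on 10, 0 and 1 UMIs. T cell-like cells gave such a gap to 0.443% of all genes.

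ABCA5, a lysosomal lipid transporter, was highest in endothelial-like cells at 119.4, 163.8 and 114.1 CPM, a gap shown there by 2.79% of all genes. ABCA5 was at 149, 187.5 and 129.8 CPM in the cluster whose leading genes include STAB2, a sinusoidal marker. In the cluster whose leading genes include VWF, a vascular marker, it was at 23.4, 21.9 and 20.96 CPM on 4, 3 and 6 UMIs. Within each library the STAB2 cluster was higher, by 6.38-fold (2.40 to 24.0) in Con, 8.56-fold (2.87 to 42.0) in NASH and 6.19-fold (2.80 to 17.1) in NASH-T. Of all genes, 25.5%, 22.8% and 26.5% differed by at least 1.5-fold between these clusters.

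**Figure D2:**
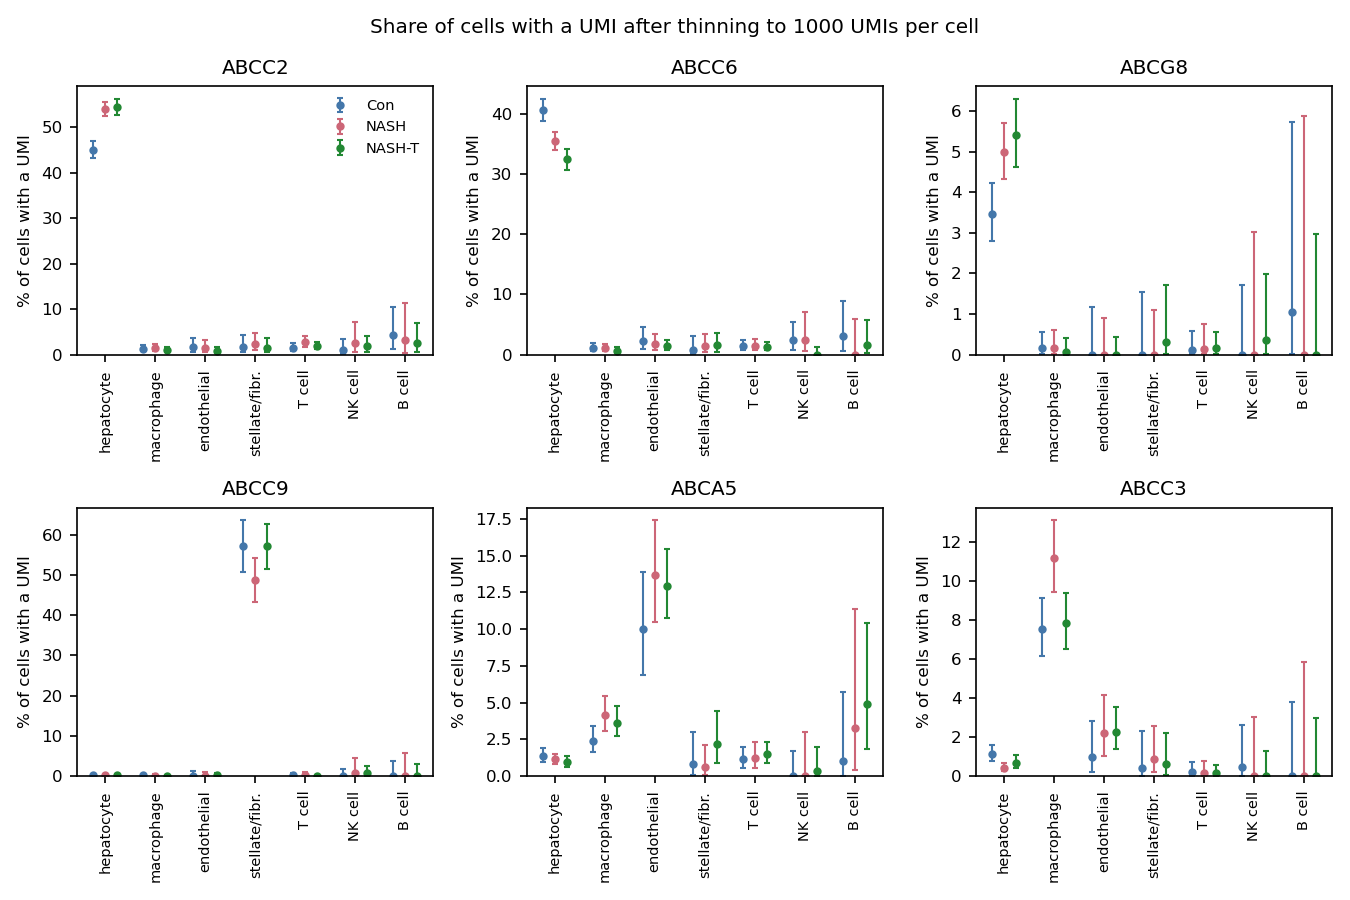
Percent of cells with at least 1 UMI of a gene after thinning to 1000 UMIs, for 6 ABC genes in 7 cell classes. Cells with fewer than 1000 UMIs were left out. Points show the 3 libraries, with exact 95% binomial intervals. ABCC2, ABCC6 and ABCG8 lie high in hepatocyte-like cells, ABCC9 in stellate or fibroblast-like cells, ABCA5 in endothelial-like cells and ABCC3 in macrophage-like cells.

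The remaining members were spread over several classes. ABCA1, the cholesterol and phospholipid exporter that starts high-density lipoprotein, was at 822, 912 and 917 CPM in macrophage-like, 473, 621 and 523 CPM in hepatocyte-like and 258.5, 319.8 and 301.3 CPM in stellate or fibroblast-like cells. Its 4 other classes stayed below 90 CPM. Among the 7 classes, ABCG1, which passes sterol to existing lipoproteins, was highest in macrophage-like cells at 18.9, 29.2 and 33.9 CPM. ABCG2, an exporter of urate and xenobiotics, was at 306, 223 and 284.5 CPM in hepatocyte-like and 135.3, 106.5 and 168.4 CPM in macrophage-like cells, and ABCC5, an exporter of cyclic nucleotides and glutamate conjugates, was also highest in these 2 classes.

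ABCC1, an exporter of glutathione and leukotriene conjugates, was low where ABCC2 was high. It was at 154, 151.5 and 139.9 CPM in macrophage-like cells and at 128, 129.5 and 104.1 CPM in T cell-like cells. In hepatocyte-like cells ABCC1 was at 2.73, 1.97 and 3.04 CPM. ABCD3, a peroxisomal importer of branched and dicarboxylic acids, was highest in hepatocyte-like cells at 209, 268 and 277.5 CPM. ABCD4, a lysosomal protein of cobalamin export, was also highest in hepatocyte-like cells, on 255 UMIs over the 7 classes.

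ABCB10, a mitochondrial protein linked to haem synthesis, was spread over all classes and ranged over the 7 from 8.71 to 28.9 CPM. ABCE1, which splits ribosomes after translation ends, ranged from 38.0 to 92.9 CPM, and ABCF1, a translation factor, from 28.1 to 112.9 CPM. ABCC10 was highest in B cell-like cells on 3, 5 and 11 UMIs there, and ABCB6, on 336 UMIs over the 7 classes, in endothelial-like cells. Among the low members, ABCA4, ABCA7, ABCB5, ABCB8, ABCB9, ABCC11, ABCF2 and ABCF3 had between 40 and 346 UMIs over the 7 classes, and their highest class rests on few counts.

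The first comparison between libraries was NASH with Con in hepatocyte-like cells. The threshold was a difference of 1.5-fold in either direction with an interval excluding 1, for genes with 20 or more UMIs over both libraries. Of 32 measured ABC genes, 0 were higher and 2 were lower, ABCA3 and ABCC3, while 16.6% of all 13279 measured genes passed, 5.23% higher and 11.3% lower. The median log2 ratio was −0.112 for the members and −0.124 for all genes. The share of members past the threshold was thus no higher than that of all genes. The count of 0 higher members also depended on cell filtering and clustering. With levels still scaled to the class total, 1 member was higher under a stricter cell filter. The same count of 1 was reached with coarser or finer clustering. Over the hepatocyte-like clusters that every library fills, 2 were higher and 1 was lower. It stayed at 0 with thinned cells, with doublets kept and with each library clustered alone.

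The median gene itself lay below Con, at −0.124 on the log2 scale for NASH and by −0.099 for NASH-T. Taken relative to the median gene, 2 members were higher in NASH than in Con, ABCC2 at 1.54 (1.502 to 1.58) and ABCA9 at 1.52 (1.37 to 1.68), and the same 2 were lower. ABCA3 was at 4.97, 1.92 and 2.57 CPM on 71, 38 and 39 UMIs, highest in Con. Its ratios to Con were 0.386 (0.253 to 0.581) in NASH and 0.518 (0.341 to 0.775) in NASH-T. ABCC3 in hepatocyte-like cells had a ratio of 0.390 (0.297 to 0.511) between NASH and Con, and of 0.652 (0.506 to 0.837) between NASH-T and Con. With only the clusters that every library fills, the first of these was 0.671 and no longer passed. The second did not pass relative to the median gene.

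NASH-T was then set against Con. In hepatocyte-like cells 1 ABC gene, ABCA9, was higher and 4, ABCA3, ABCA10, ABCB6 and ABCC3, were lower of 32 measured, where 12.7% of all genes passed, 4.63% higher and 8.07% lower. The members' median log2 ratio was −0.130. Relative to the median gene the higher members were ABCA9, ABCC2, ABCG8 and ABCC9 and the lower ones ABCA3, ABCA10 and ABCB6, so the split of higher to lower members went from 1 to 4 into 4 to 3. ABCC9 in hepatocyte-like cells, at 2.66, 3.64 and 3.83 CPM, was close to its level in T cell-like cells, 2.58, 2.45 and 1.90 CPM.

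ABCA10 and ABCA9 are close paralogs of the ABCA subgroup described as lipid-responsive, and they differed in opposite directions. ABCA10 was at 678, 563 and 418.5 CPM in hepatocyte-like cells, highest in Con and lowest in NASH-T with no overlap of the intervals. ABCA9 was at 41.9, 58.3 and 68.6 CPM, lowest in Con and highest in NASH-T, again without overlap. The ratios of NASH-T to Con were 0.617 (0.598 to 0.637) for ABCA10 and 1.64 (1.48 to 1.81) for ABCA9. ABCA6, a further paralog, was at 276, 195.5 and 211 CPM and below 1.5-fold in each comparison. How reads that match several of these paralogs were treated is not given in the sources used here.

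ABCB6, a porphyrin transporter, was at 6.23, 4.95 and 3.10 CPM in hepatocyte-like cells, on 89, 98 and 47 UMIs, and was lowest in NASH-T. The ratio of NASH-T to Con was 0.498 (0.342 to 0.716) and that of NASH-T to NASH 0.626 (0.432 to 0.895). Thinned to 1000 UMIs, the ABCB6 ratios were 0.498 (0.233 to 1.02) and 0.592 (0.283 to 1.18), similar in size with wider intervals that include 1. Of 16 measured haem and iron-sulfur genes, ALAS1, the first enzyme of haem synthesis, and UROS were lower in NASH-T than in Con, with ratios of 0.584 (0.550 to 0.620) and 0.617 (0.431 to 0.877), and 0 were higher. These 2 of 16 are near the 12.7% of all genes past the threshold.

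NASH-T was also set against NASH, which shares the HRDS diet. Of 32 measured ABC genes 1 was higher in NASH-T, ABCC3 at 1.67 (1.25 to 2.24), and 2 were lower, ABCB6 and ABCG1, while 13.0% of all genes passed, 8.11% higher and 4.92% lower. ABCG1 in hepatocyte-like cells rested on 47 UMIs in NASH and 18 in NASH-T, and its ratio turned to 1.32 after thinning. Over the clusters that every library fills, the ABCC3 ratio was 0.971. ABCC3 and ABCG1 were highest in macrophage-like cells among the 7 classes. The 16 macrophage markers, none at 0, summed to 1153, 1082 and 1638 CPM in hepatocyte-like cells. Their part in these ratios was not tested.

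**Figure D3:**
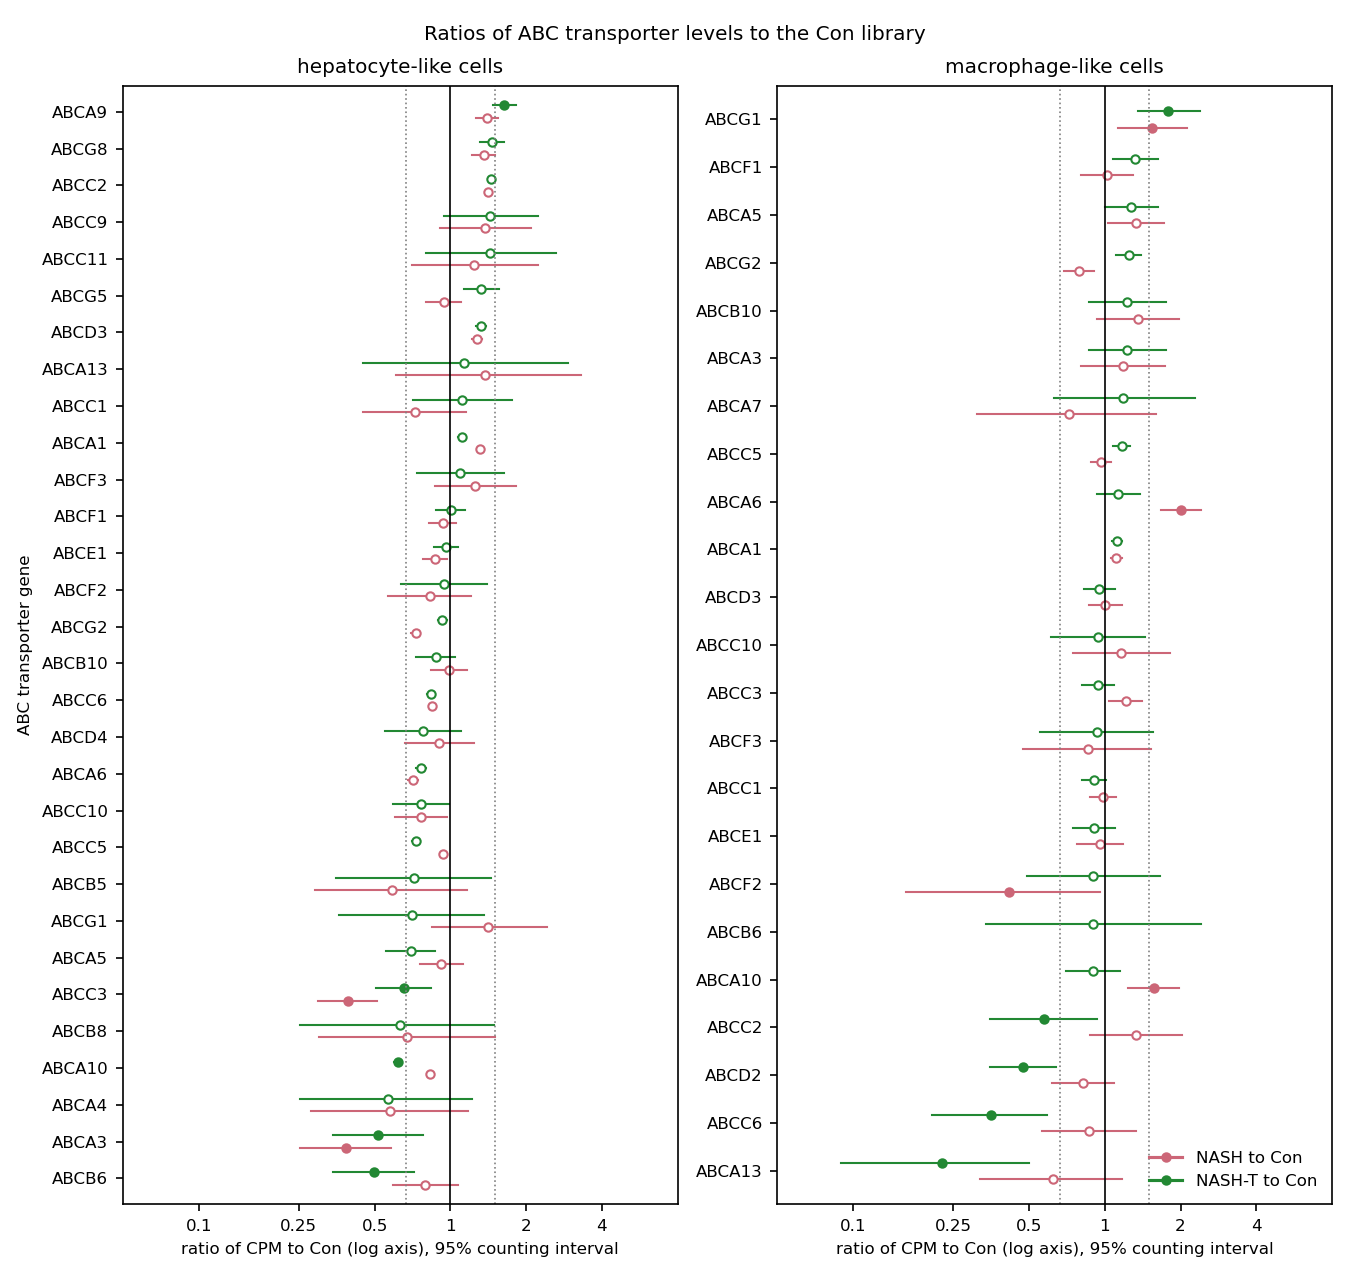
Ratio of CPM to the Con library (log axis) for the measured ABC genes reported here in hepatocyte-like cells (left) and macrophage-like cells (right), with 95% counting intervals. Filled points passed the 1.5-fold threshold (dotted lines) with an interval excluding 1. Most points lie inside the dotted lines, ABCA9 and ABCA10 stand at opposite sides in hepatocyte-like cells, and ABCG1 lies to the right in macrophage-like cells.

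Hepatocyte-like cells fell into 5 clusters, and 2 of these, numbered 3 and 22, were nearly NASH alone with 1396 and 1392 of its cells. Class totals therefore mix clusters in different proportions. Clusters 0 and 1, the larger of the 3 that all libraries fill, give a second reading. ABCC2 was at 568, 951 and 871 CPM in cluster 0 and at 680.5, 1184 and 945 CPM in cluster 1. In these the ratio of NASH to Con was 1.67 (1.59 to 1.76) and 1.74 (1.66 to 1.82), while the NASH clusters 3 and 22 held 731 and 966 CPM. The class ratio of 1.41 (1.38 to 1.45) was thus smaller than that of cluster 0 or 1, where 13.8% and 12.5% of all genes passed. In cluster 2, with 275, 210 and 350 cells, ABCC2 was at 546, 677 and 811 CPM and the ratio of NASH to Con was 1.24 (0.995 to 1.54).

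ABCA9 showed the opposite arrangement for NASH. In clusters 0 and 1 its levels were 30.7, 24.2 and 48.9 CPM and 50.5, 45.9 and 90.9 CPM, so NASH lay with or below Con and only NASH-T was high. NASH reached 116 CPM in its own cluster 22. NASH-T passed the threshold against Con in both of these, at 1.59 (1.33 to 1.91) and 1.80 (1.59 to 2.05), and against NASH at 2.02 (1.58 to 2.62) and 1.98 (1.62 to 2.44). ABCA10 was lower in NASH-T than in Con in both, at 0.647 (0.617 to 0.679) and 0.599 (0.573 to 0.625). NASH-T against Con was called in 12.1% and 12.6% of all genes in these clusters, and NASH-T against NASH in 10.5% and 10.4%. In cluster 2 neither gene passed in NASH-T against Con, with ratios of 0.852 (0.405 to 1.80) for ABCA9, on 17 and 16 UMIs, and 0.718 (0.574 to 0.897) for ABCA10.

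The hepatocyte-like clusters also differed within a library. Cluster 1 carried more of the pericentral genes LGR5 (376, 362 and 471 CPM against 56.3, 76.2 and 71.1 in cluster 0) and CYP2E1, and less of the periportal genes HAL and GLS2. All were chosen from a longer list of zonation genes after their values were seen. The list also held GLUL, TBX3, RHBG, AXIN2, OAT, SDS, ASS1, PCK1, CPS1 and ARG1, whose values are not given here, so the clusters are not named by zone. ABCC5 was higher in cluster 1 than in cluster 0 in all libraries, by 1.66-fold (1.58 to 1.75), 2.38-fold (2.19 to 2.59) and 2.36-fold (2.23 to 2.50). ABCA9 was higher there too, by 1.64-fold (1.38 to 1.97), 1.90-fold (1.41 to 2.57) and 1.86-fold (1.63 to 2.12). Of all genes 8.82%, 8.76% and 9.54% differed by 1.5-fold between these clusters.

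The NASH clusters repeated this within their own library. LGR5 was at 366 CPM in cluster 22 and 68.8 CPM in cluster 3. Cluster 22 was higher in ABCC5 by 2.15-fold (2.04 to 2.25) and in ABCA9 by 3.25-fold (2.83 to 3.75). ABCG2 was higher by 1.60-fold (1.49 to 1.72) and ABCB6 by 1.73-fold (1.04 to 2.91), with 10.8% of all genes past the threshold. ABCC5 and ABCA9 thus went with the LGR5-high cluster in each of the 4 pairs.

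**Figure D4:**
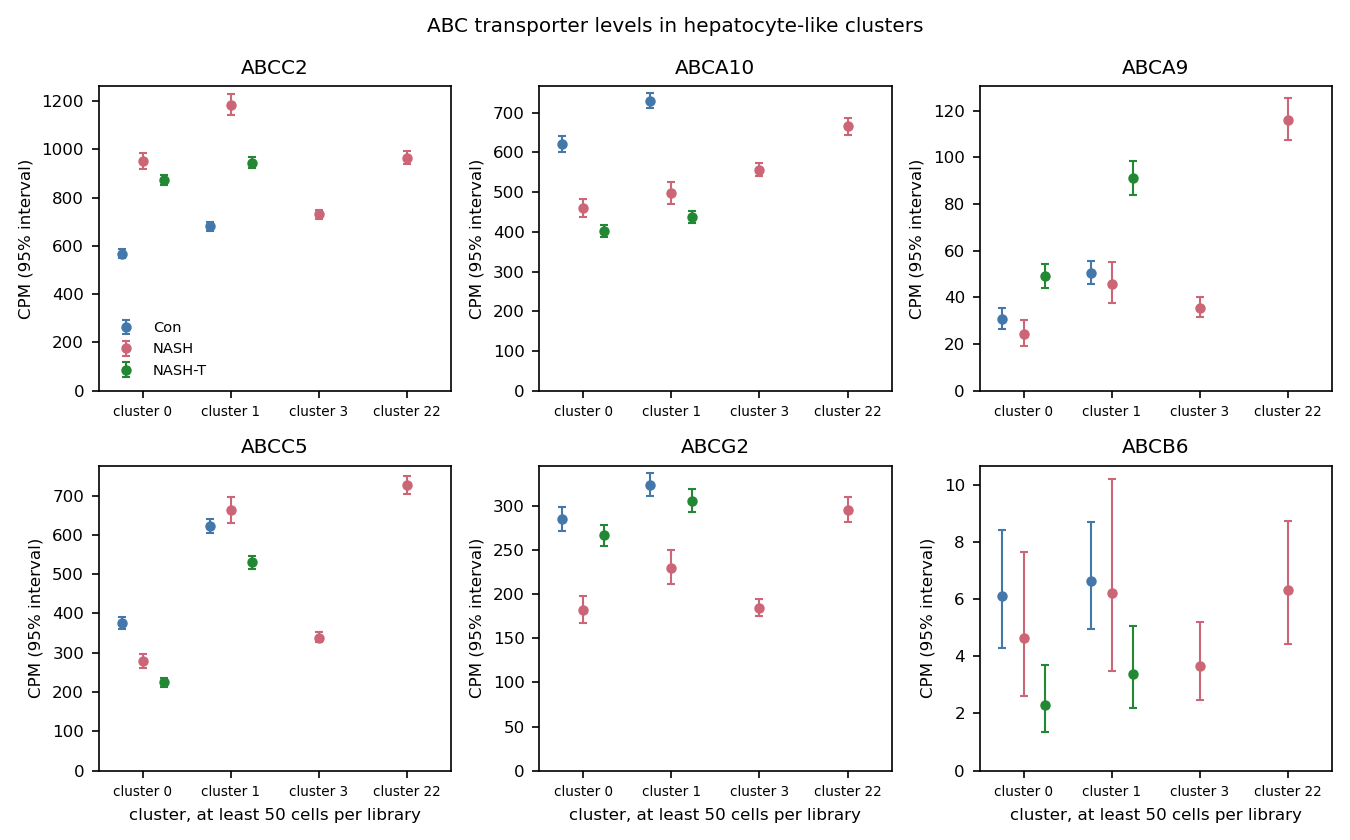
CPM of 6 ABC genes in 4 hepatocyte-like clusters, with points for each library that has at least 50 cells there and 95% Poisson intervals. Clusters 3 and 22 show NASH only. ABCC2 is lowest in Con in clusters 0 and 1, ABCA9 is highest in NASH-T there, and ABCC5 and ABCA9 are higher in clusters 1 and 22 than in clusters 0 and 3.

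In macrophage-like cells, 3 ABC genes were higher and 1 lower of 24 measured in NASH against Con, where 8.18% of all genes passed, 3.58% higher and 4.6% lower. The share of members, 4 of 24, lay above that of all genes. The higher genes were ABCA6, ABCA10 and ABCG1 and the lower was ABCF2, on 24 and 8 UMIs. Of 11 other settings, ABCF2 stayed past the threshold in 6, ABCA10 in 9, and ABCA6 and ABCG1 in all 11. ABCG1, at 18.9, 29.2 and 33.9 CPM, had ratios of 1.54 (1.13 to 2.12) in NASH and 1.79 (1.35 to 2.39) in NASH-T, so it was lowest in Con. ABCA1, its partner in cholesterol efflux, was higher by only 1.11-fold (1.06 to 1.17) and 1.12-fold (1.06 to 1.17).

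In NASH-T against Con, ABCG1 was the 1 higher gene of 25 measured and 4 were lower, ABCA13, ABCC2, ABCC6 and ABCD2, with 9.43% of all genes past the threshold, 3.34% higher and 6.1% lower. In NASH-T against NASH, ABCG2 was the 1 higher gene of 24 measured and 6 were lower, ABCA6, ABCA10 and the same 4, with 9.57% of all genes past it, 4.15% higher and 5.42% lower. ABCG2, at 135.3, 106.5 and 168.4 CPM, was lowest in NASH, and its ratio of NASH-T to NASH was 1.58 (1.39 to 1.80). The levels of ABCC2 in macrophage-like cells, 11.7, 15.5 and 6.72 CPM, lay below those in T cell-like cells, 19.6, 23.9 and 22.8 CPM, and so did those of ABCC6, so neither stood above the level in a class that should lack it. Hepatocyte markers in macrophage-like cells summed to 1842, 2138 and 2114 CPM and were not lower in NASH-T.

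The class was made of cluster 8, whose leading genes include TIMD4, a marker of resident Kupffer cells, and cluster 5, whose leading genes include MRC1 and NRP2. Cluster 5 made up 36.7%, 29.4% and 22.4% of the class. ABCD2 was at 103, 112 and 87.7 CPM in cluster 5 and had 1, 0 and 1 UMIs in cluster 8. Within cluster 5 the ABCD2 ratio of NASH-T to Con was 0.850 (0.622 to 1.15), with 9.43% of all genes past the threshold there. The part of the smaller cluster 5 share in the lower class level of ABCD2 was not tested.

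ABCA6 and ABCA10, neighbours in the RefSeq annotation of ARS1.2, were also higher in cluster 5 than in cluster 8. ABCA6 was at 92.7, 303 and 107 CPM in cluster 5 and at 27.7, 32.5 and 43.0 CPM in cluster 8. Only NASH stood apart, with a ratio to Con of 3.27 (2.60 to 4.12), and its level lay above the 195.5 CPM of NASH hepatocyte-like cells. ABCA10 was at 75.8, 185 and 135 CPM in cluster 5, with ratios to Con of 2.44 (1.87 to 3.21) for NASH and 1.78 (1.33 to 2.38) for NASH-T. Hepatocyte markers summed to 2109, 2962 and 2577 CPM in cluster 5 and to 1722, 1885 and 2018 CPM in cluster 8, and ABCB11, a hepatocyte gene, was at 17.7, 55.5 and 17.0 CPM in cluster 5. The 16 macrophage markers summed to 10120, 6578 and 8020 CPM in cluster 5, lowest in NASH, and to 14550, 13250 and 14430 CPM in cluster 8. The part of either marker shift in these ratios was not tested. In NASH against Con 13.6% of all genes passed within cluster 5.

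ABCG1 was higher than Con in cluster 5 by 3.28-fold (1.40 to 8.29) in NASH and 3.43-fold (1.48 to 8.60) in NASH-T, on 9, 18 and 19 UMIs. In cluster 8 the levels of 24.1, 30.8 and 35.7 CPM followed the same order, with ratios of 1.28 (0.909 to 1.80) and 1.48 (1.10 to 2.02) that did not reach 1.5. ABCA1 did not follow: it was highest in Con in cluster 5 (614, 459 and 476 CPM) and lowest in Con in cluster 8 (914.5, 1051 and 1008 CPM). ABCG2 was lowest in NASH in both, at 106.4, 39.7 and 83.8 CPM and at 148, 127 and 185.8 CPM. In cluster 5 ABCA1 and ABCG2 thus ran in the same order of libraries as the summed macrophage markers.

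**Figure D5:**
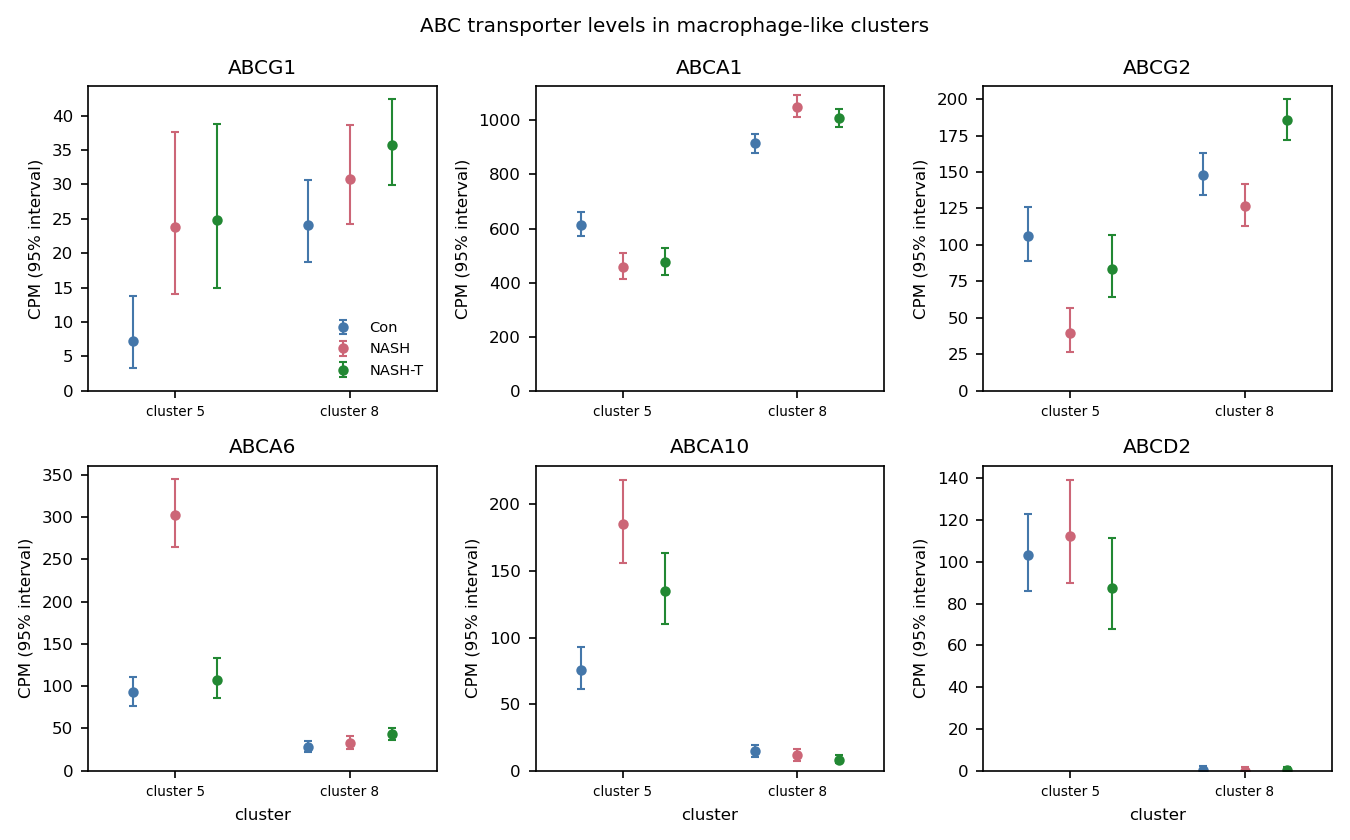
CPM of 6 ABC genes in the 2 macrophage-like clusters, with points for the 3 libraries and 95% Poisson intervals. ABCD2 is near 0 in cluster 8, ABCA6 in cluster 5 is high in NASH, and ABCG1 is lowest in Con in both clusters.

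Endothelial-like cells had few calls. ABCC1 was lower in NASH than in Con, the 1 call of 14 measured, and ABCC1 and ABCA10 were lower in NASH-T than in Con, of 18, with 10.3% (3.78% higher, 6.54% lower) and 10.2% (4.46% and 5.73%) of all genes past the threshold. ABCC6 was the 1 lower gene of 18 in NASH-T against NASH, where 8.88% passed, 4.89% higher and 4.0% lower. ABCC1 was at 41.7, 21.9 and 19.6 CPM, on 30, 21 and 39 UMIs. When libraries were clustered separately, the ABCC1 ratio of NASH to Con turned from 0.526 to 2.44. In the VWF cluster ABCC1 was at 105, 58.4 and 17.5 CPM on 18, 8 and 5 UMIs and in the STAB2 cluster at 21.8, 15.8 and 20.0 CPM, so Con was high in the VWF cluster and not in the other, and the VWF cluster made up 26.2%, 14.3% and 13.1% of the class.

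Stellate or fibroblast-like cells had 1 higher and 2 lower of 16 measured members in NASH against Con, where 11.2% of all genes passed, 5.71% higher and 5.47% lower. ABCA5 was higher, on 4 and 18 UMIs, and ABCA6 and ABCA9 were lower in both NASH and NASH-T than in Con. In NASH-T against Con these were the 2 calls of 12, with 9.21% of all genes (4.53% higher, 4.68% lower), and in NASH-T against NASH 0 of 15 members passed, with 8.68% (4.28% and 4.39%). ABCA9 was at 38.7, 15.5 and 15.7 CPM on 22, 12 and 12 UMIs and ABCA6 at 36.9, 11.7 and 13.1 CPM. Most of their UMIs lay in the cluster with C7 and LAMA2, 17 of 22 for ABCA9 in Con, and that cluster made up 28.2%, 13.9% and 16.8% of the class. When libraries were clustered separately, the ratios of NASH to Con turned from 0.316 to 5.04 for ABCA6 and from 0.402 to 1.70 for ABCA9, and thinning turned that of ABCA5 from 3.31 to 0.705. The 7 sinusoidal endothelial markers summed to 86.2, 400.1 and 86.5 CPM in this class, high in NASH, and ABCA5 was highest in the STAB2 cluster. The part of these markers in the ABCA5 ratio was not tested.

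In the T, NK and B cell-like classes, 0 ABC genes were counted as higher. T cell-like cells had ABCA7, a phospholipid transporter, lower in NASH than in Con on 4 and 22 UMIs, the 1 call of 21 with 7.12% of all genes past the threshold, 3.51% higher and 3.61% lower. In NASH-T against Con, ABCC6, ABCC8 and ABCG2 were lower of 20, with 6.79% (3.59% higher, 3.21% lower), and ABCG2 was the 1 lower gene of 21 against NASH, with 7.47% (4.29% and 3.18%). ABCC6 and ABCG2 had 34 or fewer UMIs per library there. In NASH-T against Con, ABCC6 stayed past the threshold in 3 of 11 other settings, ABCC8 in 8 and ABCG2 in 10.

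NK cell-like cells had 1 call, ABCE1 lower in NASH-T than in Con of 8 measured, where 8.1% of all genes passed, 4.26% higher and 3.84% lower. The other comparisons had 0 of 6 measured members past the threshold, against 9.54% (5.2% and 4.34%) in NASH to Con and 7.68% (3.97% and 3.71%) in NASH-T to NASH. In B cell-like cells 1 of 10 measured members was lower in NASH than in Con, with 8.77% of all genes past the threshold (4.28% and 4.49%). ABCC5 was lower in NASH-T than in Con, 1 of 11 against 9.25% (4.47% and 4.78%), and 0 of 10 passed in NASH-T to NASH, against 10.6% (5.04% and 5.56%). With NASH holding 100 B cell-like cells, these rest on few counts, 31 and 19 UMIs for ABCC5.

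Genes that work with the ABC members were read in hepatocyte-like cells from lists of partners. Among sterol efflux partners and targets of the sterol receptor LXR, LPCAT3, a phospholipid remodelling enzyme, was the 1 higher of 9 measured in NASH, at 2.19 (2.02 to 2.36), and in NASH-T, at 1.58 (1.45 to 1.72), with 0 lower. Among 10 nuclear receptors of transporter genes, NR0B2, the bile acid responsive repressor SHP, was higher in NASH at 1.83 (1.30 to 2.62) and NR1I3, the xenobiotic receptor CAR, was lower in NASH-T at 0.640 (0.583 to 0.702). These shares, 1 of 9 and 1 of 10 in each comparison, are near the 16.6% and 12.7% of all genes in the same comparisons.

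Targets of the oxidant sensor NRF2, which include ABCC2 and ABCC3 in other species, split. Of 9 measured in NASH against Con, ME1, malic enzyme, was higher at 2.41 (1.96 to 2.98) and HMOX1 was lower at 0.503 (0.385 to 0.655), against 16.6% of all genes. Of 8 in NASH-T against Con, ME1 at 3.28 (2.67 to 4.05) and the cystine importer SLC7A11 at 2.90 (2.32 to 3.64) were higher and 0 were lower, against 12.7% of all genes. Of 5 measured conjugation enzymes, which make substrates for ABCC pumps, 2 were lower in NASH, GSTA4 and GSTM3, and 1 in NASH-T, GSTA4, with 0 higher. GSTA4, a glutathione transferase, had ratios to Con of 0.442 (0.381 to 0.511) and 0.557 (0.480 to 0.646).

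Of 7 measured basolateral uptake transporters, which bring in what the ABC pumps export, SLC22A7 at 1.78 (1.71 to 1.86) and SLC51B were higher and SLCO1A2 was lower in NASH. Of 17 peroxisomal genes, ACSL1 was higher in NASH at 1.51 (1.45 to 1.57) and HSD17B4 in NASH-T at 1.53 (1.497 to 1.57), with 0 lower. ABCD3 was higher than Con by 1.28-fold (1.22 to 1.34) and 1.33-fold (1.26 to 1.39). Of 8 genes of ribosome recycling and 7 of cobalamin handling, 0 passed in NASH or NASH-T against Con.

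ABCB11, the bile salt export pump and no member here, was at 1199, 1699 and 1102 CPM in hepatocyte-like cells, highest in NASH, with a ratio of NASH-T to NASH of 0.649 (0.637 to 0.661). ABCC2 was at 1.02 (0.999 to 1.04) in that comparison, and high in both libraries on the HRDS diet.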

How the data were processed

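Single-cell RNA of goat liver was analysed from 3 libraries, 1 per group. The authors deposited UMI counts per gene and barcode, made with Cell Ranger 7.0.0 per the submitters' processing notes. The genome build is not given in the sources used here. ABC members and gene lists were chosen with earlier results of these data known.

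Cells with at least 200 genes, 500 UMIs and at most 20% mitochondrial UMIs were kept, and Scrublet calls (expected rate 0.06) removed 284, 342 and 459 barcodes as doublets. The 3 libraries held 25506238, 31195014 and 29572158 UMIs. Clustering (scanpy 1.11.5, 2000 variable genes without ABC members, 30 components, 15 neighbours, Leiden resolution 0.8) was named from 161 marker genes. A cluster needed at least 3 markers of a class at 2-fold. Clusters mixing hepatocyte and other markers were left out of every class.

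UMIs were summed per class and library. Ratios of CPM carry exact conditional binomial intervals, CPM exact Poisson intervals and shares exact binomial (Clopper-Pearson) intervals, all covering counting error only. The ratio rule was tested on simulated data. Every ABC gene entered the counts. Values were printed for members past 1.5-fold, and for members with a 3-fold gap between classes. Of partner lists of 130 names, 104 were in the matrices, and up to 3 genes per list were named. RefSeq (ARS1.2) matched 38 of 40 members by symbol and was used for neighbours only. Alternatives changed scaling (edgeR TMM, median of ratios, centring), thresholds, cell filters, doublets, clustering and depth. A few genes are not reported here.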

Additional observations from a re-analysis of the deposited data

Results flagged for a closer look

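Some ABC genes moved in opposite directions in 2 cell classes under the same comparison. None of these differences between classes was tested, because each group is 1 library. From Con to NASH, ABCA6 had a ratio of 2.009 in macrophage-like cells, on 192 and 309 UMIs, and of 0.3155 in stellate or fibroblast-like cells, on 21 and 9 UMIs. From Con to NASH-T, ABCA9 had a ratio of 1.639 in hepatocyte-like cells, on 598 and 1040 UMIs, and of 0.4064 in stellate or fibroblast-like cells, on 22 and 12 UMIs. From NASH to NASH-T, ABCG2 had a ratio of 1.581 in macrophage-like cells, on 343 and 751 UMIs, and of 0.4563 in T cell-like cells, on 19 and 14 UMIs. When libraries were clustered separately, the stellate or fibroblast-like ratios of ABCA6 and ABCA9 turned to 5.04 and 1.36.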

How the results depend on the processing

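The count of ABC genes at least 3 times the next class was 14, and 13 to 17 under 7 other settings. In hepatocyte-like cells the 2 members past the threshold in NASH against Con, 0 of them higher, became 4 with median-of-ratios scaling or centring on the median gene. Of these 4, 2 were higher. Over the shared hepatocyte clusters the count was 3, with 2 higher. The 5 in NASH-T against Con became 1 at 2-fold, and the 3 in NASH-T against NASH became 1 with cells thinned to 1000 UMIs and 1 at 2-fold. In the other classes, the 10 calls in NASH against Con became 23 with each library clustered on its own, 5 with at least 50 UMIs and 6 at 2-fold. The 14 in NASH-T against Con became 4 thinned, 22 with libraries clustered alone and 9 with at least 50 UMIs. The 9 in NASH-T against NASH became 3 thinned, 14 with ABC genes among the variable genes, 14 with libraries clustered alone and 4 at 2-fold. Clustered alone, NASH gave 0 NK cell-like and 74 endothelial-like cells, against 162 and 551.

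Directions turned in 8 of 43 called ratios. Thinned, ABCG1 in hepatocyte-like cells (NASH-T to NASH) was 1.321 and ABCA5 in stellate or fibroblast-like cells (NASH to Con) was 0.7045. Over the shared hepatocyte clusters, ABCC3 (NASH-T to NASH) was 0.9705. With libraries clustered alone, ABCC1 in endothelial-like cells (NASH to Con) was 2.439, and in stellate or fibroblast-like cells ABCA6 was 5.042 and 2.825 and ABCA9 was 1.698 and 1.356, for NASH and NASH-T to Con. The cause was not tested. Under each setting of scaling, cells, clustering and depth, with the threshold kept at 1.5-fold, 8 of 43 stayed past it: in hepatocyte-like cells ABCA3 (NASH to Con), ABCA9 and ABCA10 (NASH-T to Con), and in macrophage-like cells ABCG1 (both to Con), ABCA6 (NASH to Con), and ABCG2 and ABCA10 (NASH-T to NASH). At 2-fold, of these 8, ABCA3 and ABCA6 remained.

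No paired analysis was possible because each group is 1 library. Leaving out a replicate was not possible for the same reason. Depth limits the smaller classes: 6 to 8 members in NK cell-like and 10 to 11 in B cell-like cells reached 20 UMIs over both libraries of a comparison.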

Other observations

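Plasma cell-like cells, 116, 49 and 162 in Con, NASH and NASH-T, were too few for the comparisons above. ABCE1, which splits ribosomes for reuse, was at 147.8, 138.2 and 135.1 CPM there, on 30, 11 and 46 UMIs, above its 86.8, 92.9 and 91.7 CPM in B cell-like cells in each library, with overlapping intervals. ABCG1 was at 69.0, 75.4 and 26.4 CPM in plasma cell-like cells, on 14, 6 and 9 UMIs.

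TAP2, an ABC protein that feeds peptides to MHC class I, was at 297.7, 404.9 and 656.9 CPM in B cell-like cells. NASH-T was highest, with ratios of 2.21 (1.68 to 2.92) to Con and 1.62 (1.22 to 2.19) to NASH, on 72, 61 and 215 UMIs. No difference between libraries was tested.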
